A study of Callithrix jacchus with 4 samples.

Results

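The chemokine genes of marmoset frontal cortex are described here, 9 of the 35108 genes of the table. The members are CCL2, CXCL8, CXCL9, CXCL10 and CXCL11, which inflamed tissue induces, and CX3CL1, CXCL12, CXCL14 and CXCL16, which resting brain makes constitutively. They were taken by gene symbol, all 9 were present, and they had been selected on their counts in these same libraries, inducible against constitutive. The levels below are therefore a description, and no test on a member counts as support. The animals were adult common marmosets (Callithrix jacchus), a small monkey, and RNA of frontal cortex was sequenced in 4 libraries. Of these, 2 were labelled as wild type (WT1 and WT2) and 2 (TG1 and TG2) as carrying the APP transgene. The transgene is mutant APP (amyloid precursor protein) under a human EF1α promoter. EF1α is a translation factor that nearly all cells make, so the promoter is not specific to neurons. The labels give female sex for both transgenic libraries and no sex for the wild type, and they name no founder line, batch or date. Neuronal markers of cortex were abundant in every library: the summed level of 5 excitatory neuron markers was 4117 to 4891 CPM (counts scaled to library size by the TMM method).

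Chemokines are small secreted proteins that guide migrating cells through G protein-coupled receptors. CXCL9, CXCL10 and CXCL11 are ligands of CXCR3, a receptor of activated T cells, and interferons induce them, with the transcription factor IRF1 among the factors involved. CCL2 draws monocytes through CCR2, CXCL8 draws neutrophils through CXCR1 and CXCR2, and NF-κB drives both genes. In healthy brain, CX3CL1 is made by neurons and read by microglia through CX3CR1, and CXCL12 acts through CXCR4 and the scavenging receptor ACKR3.

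TG2 stood apart from the other 3 libraries. Total counts were 12657323 in WT1, 13569838 in WT2, 13462167 in TG1 and 18932180 in TG2. Between library pairs, the chi-square per degree of freedom over genes was 7.70 to 13.1 without TG2 and 38.4 to 49.4 with it, so no library repeated another. APP, the gene of the transgene, was at 1818 CPM in WT1, 2178 in WT2, 2139 in TG1 and 2741 in TG2. TG1 thus lay between the wild-type values. Whether transgene reads were counted under this symbol is not given, so transgene expression cannot be read from these values. KDM5D, a Y-linked gene, had 2 counts in WT1, 243 in WT2 and 0 in TG1 and TG2, so sex and genotype cannot be fully told apart. The labels do not state that the libraries of a group come from separate animals, and within the groups KDM5D separated only WT1 from WT2. The p-values measure the spread between these libraries, which in the transgenic group may be technical.

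The 5 inducible chemokines were near 0 in 3 libraries and high in TG2. Together they had 16 counts in each wild-type library, 16 in TG1 and 6525 in TG2. This was 1.24, 1.17, 1.17 and 360 CPM in that order. As a share of all counts it was 0.000119% in TG1 (exact 95% interval 6.79e-05 to 0.000193) and 0.0345% in TG2 (0.0336 to 0.0353). Intervals and floors cover counting error only. The 4 constitutive chemokines summed to 184, 229, 195 and 168 CPM, so their total was lowest in TG2, just below WT1.

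**Figure D1:**
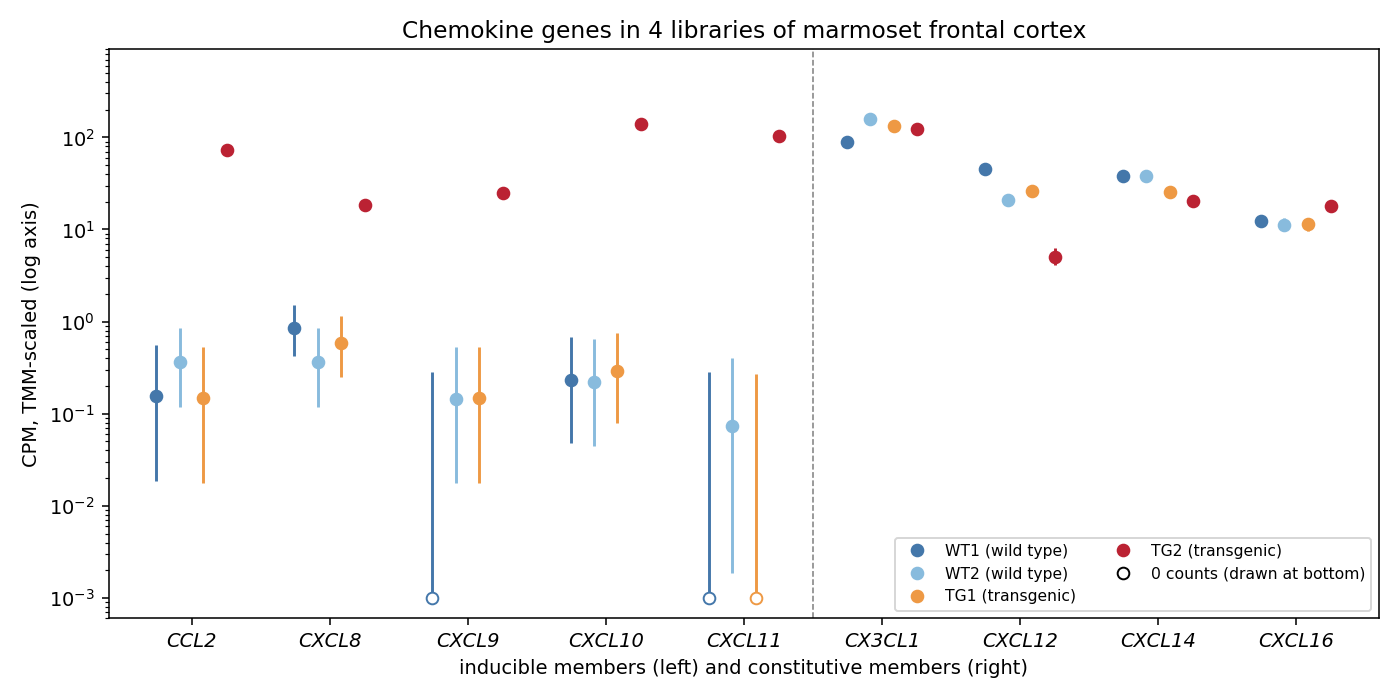
Level of each chemokine gene in CPM (log axis) in the 4 libraries, with exact 95% Poisson intervals as vertical lines. Open points at the bottom are libraries with 0 counts. Each inducible member had 11 or fewer counts in 3 libraries and at least 335 in TG2, whereas no constitutive member was counted fewer than 92 times in any library.

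Among the CXCR3 ligands, CXCL10 had 3 counts in WT1, 3 in WT2, 4 in TG1 and 2551 in TG2. These are 0.232, 0.219, 0.293 and 141 CPM. TG2 was 568-fold above the other 3 libraries pooled (95% counting interval 308 to 1185), and TG1 was 1.30-fold the wild type (0.271 to 5.50). CXCL10 had the largest ratio of TG2 to the highest other library, 480-fold, among the 17869 genes with at least 10 counts in some library. In this ratio a level under 3 counts was set to 3 counts.

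CXCL11 had 0 counts in WT1, 1 in WT2, 0 in TG1 and 1861 (103 CPM) in TG2. Against TG1, taken at a floor of 3 counts, TG2 was at least 467-fold higher. CXCL9 had 0 counts in WT1, 2 in WT2, 2 in TG1 and 456 (25.2 CPM) in TG2. The latter was 254-fold above the other 3 libraries pooled (98.4 to 935). In the order of all genes by the same ratio CXCL11 was at place 2 and CXCL9 at place 8. All 3 ligands of this receptor were thus at the detection limit in 3 libraries and clearly counted in 1.

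The genes of these ligands lie side by side in the marmoset assembly calJac240_pri (RefSeq), with CXCL10 between CXCL11 and CXCL9. That assembly need not be the one behind the counts, so it is used for gene order only, and 8 of the 9 members were matched in it. The next genes outward were well counted in every library. NUP54, next to CXCL11, was at 18.1 CPM in WT1, 19.1 in WT2, 17.3 in TG1 and 17.2 in TG2. SDAD1, next to CXCL9, was at 41.2 CPM in WT1, 39.1 in WT2, 37.5 in TG1 and 55.2 in TG2. ART3 overlaps both CXCL10 and CXCL11, and whether the counting used strand is not given, but it had only 4 counts in WT1, 3 in WT2, 5 in TG1 and 9 in TG2. These neighbours were chosen for their position.

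CCL2, the monocyte attractant, had 2 counts in WT1, 5 in WT2, 2 in TG1 and 1322 (73.0 CPM) in TG2. TG2 was 327-fold above the other 3 libraries pooled (172 to 716). Its neighbour CCL7, another ligand of CCR2, had 0 counts in 3 libraries and 18 in TG2. The neighbour on the other side, ASIC2, an ion channel gene, was at 44.9 CPM in WT1, 30.1 in WT2, 36.7 in TG1 and 70.9 in TG2. CXCL8, the neutrophil attractant, had 11 counts in WT1, 5 in WT2, 8 in TG1 and 335 (18.5 CPM) in TG2. Its ratio to the other 3 libraries was the smallest of the inducible members, 31.1-fold (20.5 to 49.2). The neighbouring gene CXCL6 had 5 counts in WT1, 7 in WT2, 7 in TG1 and 81 in TG2. In both places the adjacent chemokine was also highest in TG2.

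All 5 inducible members were at least 16-fold above the highest other library in TG2, and none of the 4 constitutive members was 4-fold above it. Of all 17869 genes with at least 10 counts, 0.252% passed 16-fold and 1.08% passed 4-fold. These thresholds were set after the values were seen, and the members were chosen for this difference.

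**Figure D2:**
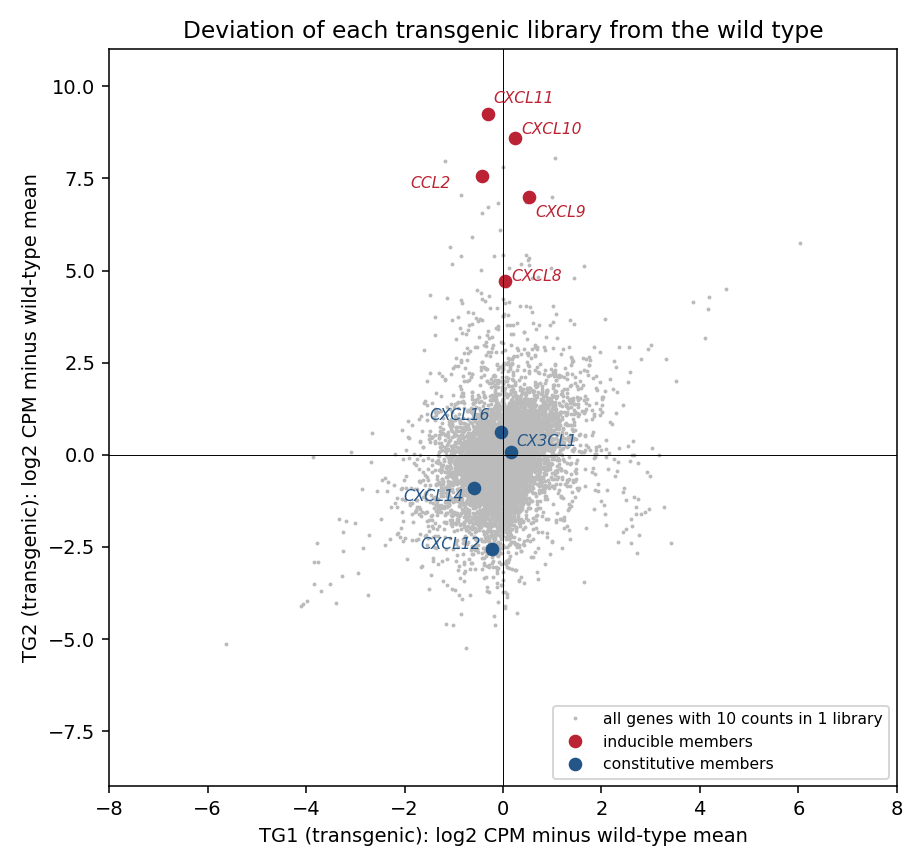
Each point is a gene, with its log2 CPM minus the wild-type mean in TG1 (horizontal axis) and TG2 (vertical axis). The inducible members lie between 4.73 and 9.25 on the vertical axis and between -0.43 and 0.53 on the horizontal axis, and the constitutive members lie within the cloud of all genes, with CXCL12 in its lower part.

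The comparison of genotypes passed no member. edgeR's default filter on low counts, which asks for enough counts in 2 libraries, kept 5 of the 9 members and removed CCL2, CXCL9, CXCL10 and CXCL11. In edgeR's quasi-likelihood test 0 of the 5 members kept had an adjusted p of at most 0.05, where 0% of all 16385 genes did, and 2 had an unadjusted p under 0.05, where 5.62% of all genes did. DESeq2 also called 0 of the 5, against 0.293% of all genes. With no filter the fitted log2 fold changes of the 4 removed genes were 7.10 for CCL2, 7.28 for CXCL9, 8.26 for CXCL10 and 10.15 for CXCL11, and none passed (adjusted p in edgeR 0.60 to 0.64), where 0.0185% of all genes did. These fitted values rest on counts near 0 and are not bounds. For CXCL10 the transgenic mean was 70.6 ± 99.4 CPM (SD, n = 2), a spread larger than the mean. CXCL8 had a log2 fold change of 3.98 ± 1.55 (SE over 2 libraries a group; edgeR gave an adjusted p of 0.79), which was -0.04 without TG2 and 4.92 without TG1. With wild type set against TG2 alone, all 5 inducible members passed in edgeR (adjusted p from 3.56e-06 for CXCL10 to 0.00044 for CXCL8), and so did CXCL12 and CXCL14, both lower in TG2. Of all genes tested in that fit 9.92% passed, and nothing is read from the share of the members, which were chosen for this pattern. CCL2, CXCL9, CXCL10 and CXCL11 entered the fit only because the filter then asks for enough counts in 1 library, TG2. The fit also assumes that the lone library varies like the wild type. In the fit without TG2 the filter removed CCL2, CXCL9, CXCL10 and CXCL11, so these 4 were not tested there. The count that follows therefore covers CXCL8 and the constitutive members only. With TG2 left out, 0 members passed, where 0.0175% of all genes did.

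The constitutive members differed in direction. Their median log2 fold change was -0.34, with 2 higher and 2 lower in sign, where the median of all genes kept was 0.00. Without TG2 the median was -0.19. In bulk tissue, fewer cells of a type and less RNA per cell cannot be told apart.

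CX3CL1, the membrane-tethered chemokine of neurons, was at 88.3 CPM in WT1, 158 in WT2, 131 in TG1 and 125 in TG2. Both transgenic values lay between the wild-type values, and the wild-type SD of 49.4 CPM exceeded the difference between group means. The log2 fold change was 0.05 ± 0.28 (SE over 2 libraries a group; edgeR gave an adjusted p of 0.97). Its sign depended on which wild-type library was left out: -0.31 without WT1 and 0.54 without WT2.

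CXCL12, which vascular and meningeal cells as well as neurons make, was at 45.1 CPM in WT1, 20.8 in WT2, 26.1 in TG1 and 5.08 in TG2. TG1 lay between the wild-type libraries and TG2 was the lowest, at 0.167 of the level of the other 3 libraries pooled (95% counting interval 0.134 to 0.207). The log2 fold change was -1.09 ± 0.78 (SE over 2 libraries a group; edgeR gave an adjusted p of 0.80). Without TG2 it was -0.34 (adjusted p = 0.97), and without TG1 it was -2.69 (adjusted p = 0.012). The 6 endothelial markers summed to 272 CPM in WT1, 195 in WT2, 163 in TG1 and 130 in TG2. In sign, 5 of the 6 were lower. The 5 mural cell markers summed to 202, 198, 203 and 210 CPM in that order, and 4 of them were lower in sign. The 5 fibroblast markers summed to 29.3, 103, 143 and 34.6 CPM. No endothelial or fibroblast marker was at 0. The part of endothelial, mural or fibroblast cells in the level of CXCL12 was not tested.

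CXCL14, a chemokine of cortical interneurons among other cells, was the constitutive member whose groups did not overlap. It was at 38.5 CPM in WT1, 38.2 in WT2, 25.6 in TG1 and 20.5 in TG2. Both transgenic libraries were below both wild-type libraries, which held for 19.4% of all genes kept. The log2 fold change was -0.74 ± 0.18 (SE over 2 libraries a group; edgeR gave an adjusted p of 0.79 and DESeq2 one of 0.33). It stayed between -0.91 and -0.59 when each library was left out in turn, and it was -0.59 without TG2. Without TG1 it was -0.91 and passed (adjusted p = 0.020 in edgeR). Of 6 inhibitory neuron markers 5 were higher in sign, and their summed level was 647 CPM in WT1, 676 in WT2, 749 in TG1 and 841 in TG2. The exception, LAMP5, a marker of a superficial interneuron class, was at 64.8 CPM in WT1, 66.8 in WT2, 41.6 in TG1 and 60.0 in TG2. No marker of this list was at 0, and the part of interneurons in the level of CXCL14 was not tested.

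CXCL16, also a transmembrane chemokine, was at 12.4 CPM in WT1, 11.2 in WT2, 11.4 in TG1 and 18.0 in TG2. TG1 lay between the wild-type values and TG2 above them, at 1.54-fold the other 3 libraries pooled (1.34 to 1.78). The log2 fold change was 0.32 ± 0.28 (SE over 2 libraries a group; edgeR gave an adjusted p of 0.81) and -0.05 without TG2. MED11 overlaps CXCL16 in calJac240_pri and had 40 counts in WT1, 34 in WT2, 31 in TG1 and 48 in TG2, against 154 to 326 for CXCL16.

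The other genes of chemokine signalling were read in 7 lists of 105 genes, of which 97 were in the table and 60 passed the filter. In edgeR's quasi-likelihood test 0 of the 60 passed (smallest adjusted p = 0.79), and 3 had an unadjusted p under 0.05, where 5.62% of all genes did. DESeq2 and limma-voom also called 0. Both transgenic libraries lay above both wild-type libraries in 10 of the 60 and below them in 9, that is in 16.7% and 15.0%, where 19.5% and 19.4% of all genes kept did. With TG1 left out, 17 of 70 genes of these lists passed as higher and 3 as lower, where 9.92% of all genes passed in either direction. Of the 70, 10 had not passed the filter with all libraries, and 5 of the genes called were among these 10. The lists were chosen with earlier results of these data known.

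CXCR3, CCR2, CXCR1 and CXCR2, the receptors named above for the inducible chemokines, were hardly counted in any library. CXCR3 had 0 counts in all 4 libraries, which allows a level of up to 0.166 to 0.232 CPM, the value of 3 counts. CCR2 had 1 count in WT1, 2 in WT2, 5 in TG1 and 0 in TG2. CXCR1 had 5, 0, 2 and 8 counts in that order, and CXCR2 had 3, 4, 3 and 1. CXCR6, the receptor of CXCL16, had 0 counts except for 3 in TG2. The inducible ligands were thus high in TG2, with CXCR3, CCR2, CXCR1 and CXCR2 at or near the detection limit there.

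Of the receptors of the constitutive chemokines, CX3CR1 and ACKR3 were well counted, and CXCR4 and CXCR6 were not. CX3CR1, the microglial receptor of CX3CL1, was at 37.4 CPM in WT1, 68.3 in WT2, 40.2 in TG1 and 3.76 in TG2. Its log2 fold change was -1.28 ± 0.99 (SE over 2 libraries a group; edgeR gave an adjusted p of 0.80), -0.40 without TG2 and -3.81 without TG1. The ligand and its receptor thus stood differently in TG2, CX3CL1 among the wild-type values and CX3CR1 far below them. The 8 microglial markers were all lower in sign and summed to 172 CPM in WT1, 172 in WT2, 91.3 in TG1 and 98.9 in TG2. Their median deviation from the wild type was -1.07 in TG1 and -0.98 in TG2 on the log2 scale, so the list as a whole was no lower in TG2 than in TG1. The exception was TMEM119, the 1 marker over 2-fold below every other library in TG2, with 112 counts in WT1, 206 in WT2, 91 in TG1 and 3 in TG2. None was at 0, and the part of microglia in the level of CX3CR1 was not tested.

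CXCR4 had only 8 to 12 counts per library, and its log2 fold change was 0.12 ± 0.51 (SE). ACKR3, which takes up CXCL12, was at 8.65 CPM in WT1, 13.1 in WT2, 12.3 in TG1 and 11.4 in TG2 (log2 fold change 0.12 ± 0.28, adjusted p = 0.91 in edgeR). ACKR2 and ACKR4, which clear inflammatory and homeostatic chemokines, lay below both wild-type libraries in both transgenic libraries. This held for 19.4% of all genes kept, and neither gene passed. ACKR2 was at 4.40 CPM in WT1, 6.50 in WT2, 4.04 in TG1 and 1.88 in TG2, and ACKR4 was at 2.63, 1.90, 1.32 and 0.608 CPM in that order. The signs of CXCR4 and ACKR3 depended on which library was left out. Of the 7 receptors kept 2 were above and 5 below the wild type in sign (median log2 fold change -0.54). Among them were CCR10 at 7.88 CPM in WT1, 5.40 in WT2, 3.74 in TG1 and 4.03 in TG2, and CCR4 at 0.695, 1.61, 0.807 and 0.773 CPM. None of the 8 receptors with at least 10 counts in a library was 4-fold above the others in TG2.

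Among the other chemokine ligands, 14 of the 27 in the table had at least 10 counts in a library, and 5 were at least 4-fold above the other libraries in TG2. All 5 reached 10 counts only in TG2, so this count is a description and is not set against other genes. They were CXCL1, CXCL2 and CXCL6, ligands of CXCR2 like CXCL8, and CCL5 and CCL7. CXCL1 had 6 counts in WT1, 3 in WT2, 1 in TG1 and 156 in TG2, and CXCL2 had 1, 7, 1 and 115. These were named after their values were seen. By the fixed rule, XCL1, a lymphocyte chemokine, was at 0.772 CPM in WT1, 0.657 in WT2, 1.39 in TG1 and 3.15 in TG2 (log2 fold change 1.67 ± 0.56 SE, adjusted p = 0.79 in edgeR). CCL27 was at 2.08, 3.21, 1.69 and 0.939 CPM, and the platelet chemokine PF4 had 14, 0, 1 and 63 counts, with a log2 fold change of -2.72 without TG2.

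Of the NF-κB list, all 13 genes kept were higher in sign, where 49.6% of all genes kept were, and the median log2 fold change was 0.93, a value that was 0.00 without TG2 and 1.49 without TG1. With library totals and no scaling factor, 11 of the 13 were higher. In TG2 7 of 15 genes were at least 4-fold above the other libraries, where 1.08% of all genes were, and 2 of the 7 (TNF and IL1A) reached 10 counts only there. The inhibitor gene TNFAIP3 was at 3.63 CPM in WT1, 2.48 in WT2, 3.23 in TG1 and 43.2 in TG2. NFKBIA, the inhibitor that NF-κB itself induces, had 402 counts in WT1, 274 in WT2, 258 in TG1 and 2348 in TG2. The cytokine gene IL1B was at 0.772, 1.09, 0.367 and 52.8 CPM, and the subunit gene NFKB2 at 4.63, 3.87, 4.55 and 26.7 CPM. In each of these 4 genes TG1 was no higher than the upper wild-type library, as with CCL2 and CXCL8. Without TG2 the log2 fold change was -1.33 for IL1B and -0.43 for NFKBIA.

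Of the 12 interferon signalling genes kept 7 lay above and 5 below the wild type in sign (median 0.14). IRF1 was at 3.09 CPM in WT1, 3.21 in WT2, 3.45 in TG1 and 111 in TG2 (log2 fold change 4.19 ± 1.51, SE over 2 libraries a group, with an edgeR adjusted p of 0.79). Without TG2 that fold change was 0.13 on the log2 scale. IRF3, a constitutive interferon regulatory factor, was at 23.4 CPM in WT1, 25.4 in WT2, 18.4 in TG1 and 18.1 in TG2. IFNG, the gene of interferon-γ, an inducer of all 3 CXCR3 ligands, had 0 counts in all 4 libraries, which allows up to the same 0.166 to 0.232 CPM. IRF1 was thus highest in TG2, and no library held a count of IFNG. The part of either gene in the levels of the CXCR3 ligands was not tested.

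Of the proteases that shed or trim chemokines 4 were higher and 2 lower in sign among 6 kept (median 0.26). ADAM10, which sheds CX3CL1 and CXCL16 from the membrane, was at 80.0 CPM in WT1, 81.5 in WT2, 96.7 in TG1 and 87.9 in TG2. MMP14 was at 7.49, 14.2, 10.5 and 23.4 CPM, and MMP2, which cleaves CCL7 and CXCL12, was at 1.08, 1.97, 4.84 and 1.55 CPM. Receptor signal transduction genes had a median of -0.04 over 11 genes kept. The receptor kinase genes GRK3 and GRK2 were at 280, 250, 304 and 376 CPM and at 258, 254, 220 and 228 CPM, and PREX1, a Rac exchange factor, was at 148, 144, 126 and 84.1 CPM. None of these 6 genes passed (adjusted p in edgeR 0.79 to 0.80), and in neither list was a gene 4-fold above the other libraries in TG2.

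**Figure D3:**
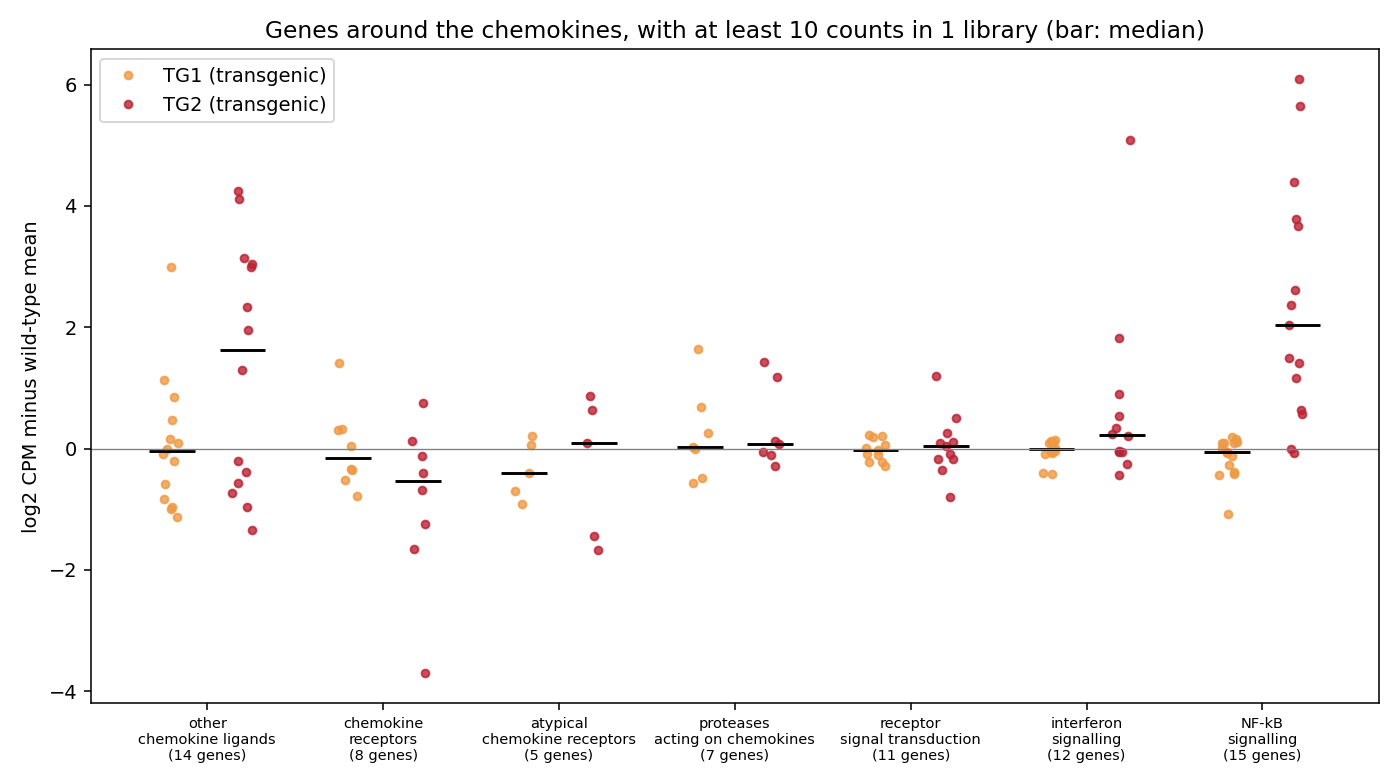
Log2 CPM minus the wild-type mean in TG1 (orange) and TG2 (red) for the genes of 7 lists with at least 10 counts in some library, with the median as a bar. Genes far above 0 are those of TG2 among the other ligands, the NF-κB list and, with IRF1, the interferon list, and the lowest point is CX3CR1 in TG2.

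Markers of the leukocytes that these chemokines attract differed in their pattern. The 7 T and NK cell markers summed to 4.56 CPM in WT1, 5.77 in WT2, 4.18 in TG1 and 7.62 in TG2. Of these 7 only 2 passed the filter, and both had a positive log2 fold change. The T cell receptor subunit genes CD3D, CD3E and CD3G had 0 counts in TG2, although the sum of the list was highest there. Of the 6 neutrophil markers, S100A8, S100A9 and S100A12 were highest in TG2, like the inducible chemokines, and the sum was 6.25 CPM in WT1, 9.64 in WT2, 6.02 in TG1 and 255 in TG2. S100A9 had 10 counts in WT1, 8 in WT2, 3 in TG1 and 3705 in TG2. The granule genes MPO and ELANE had 7 and 1 counts in TG2, and CSF3R was at 4.17, 8.69, 5.14 and 4.36 CPM. Without the 3 S100 genes, left out after their values were seen, the neutrophil sum was 4.56, 9.05, 5.65 and 4.81 CPM. Of the 6 monocyte and macrophage markers, CD14 was at 5.87 CPM in WT1, 8.98 in WT2, 5.36 in TG1 and 139 in TG2, and FCN1 had 0 counts except for 1 in TG2. The sums of that list were 43.0, 41.0, 46.3 and 154 CPM. CD14 was then left out, after its values were seen. The other 5 markers summed to 37.1 CPM in WT1, 32.0 in WT2, 40.9 in TG1 and 15.2 in TG2. Their sum was thus lowest where CD14 was highest, which did not hold for each marker. LYZ and VCAN were over 2-fold below every other library in TG2. CD163 went the other way, with a log2 CPM minus the wild-type mean of -0.29 in TG1 and 0.55 in TG2. The 6 astrocyte markers summed to 7283 CPM in WT1, 6184 in WT2, 6762 in TG1 and 2148 in TG2, and the 5 oligodendrocyte markers to 2623, 2093, 2620 and 922 CPM. The part of any of these cells in the levels of the chemokines was not tested.

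**Figure D4:**
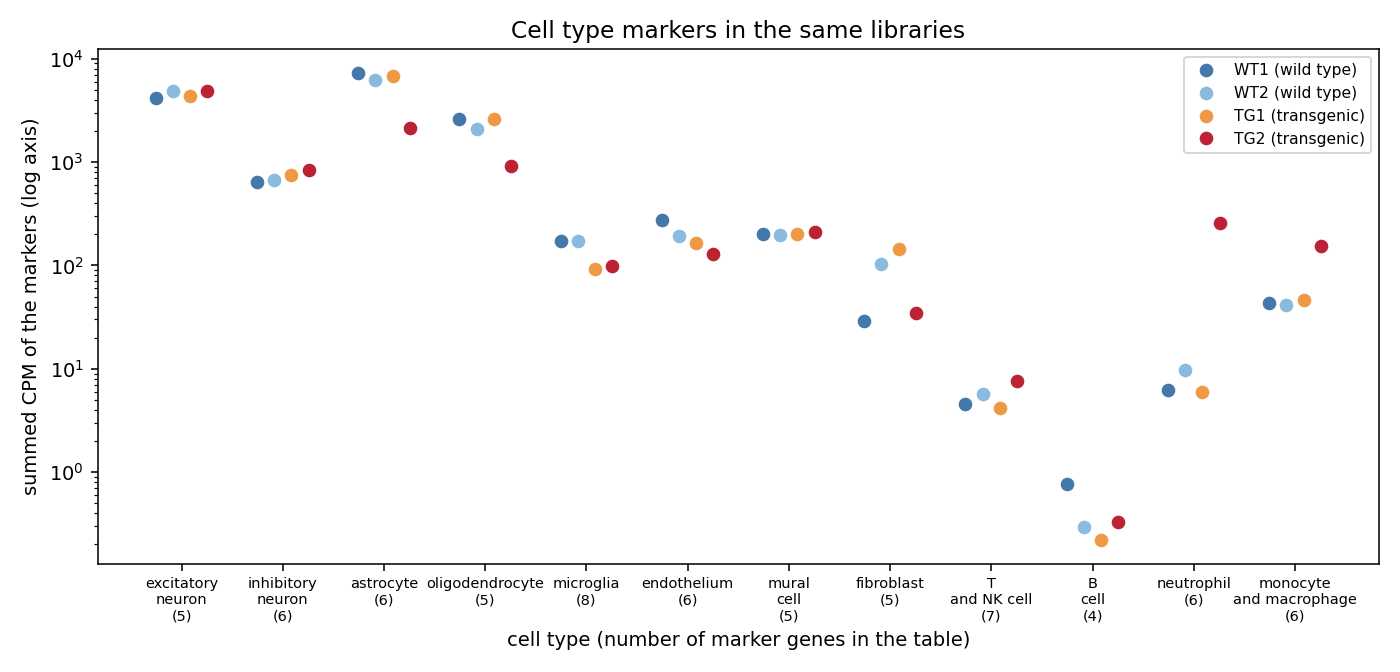
Summed CPM (log axis) of the markers of 12 cell types in the 4 libraries, with the number of markers in brackets. The neutrophil and monocyte sums were highest in TG2, at 255 and 154 CPM, through 3 S100 genes and CD14, and astrocyte and oligodendrocyte markers were lowest there. The T and NK cell sum stayed under 8 CPM in every library.

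By distance over the 4 libraries between deviations of log2 CPM from the wild-type mean, the genes most like CXCL10 among 13063 with a symbol and a mean count of at least 20 were CSF3, IL1R2, CXCL11, CCL2 and S100A9. Their distances were 0.83 to 1.57 on the log2 scale. CSF3, the gene of a neutrophil growth factor, had 0 counts in 3 libraries and 554 in TG2, and IL1R2, a decoy receptor of interleukin-1, had 0, 0, 2 and 660. The genes most like CX3CL1 were TMEM235, CARD6, HTR2A, CALB1 and ATP1B3, with distances of 0.05 to 0.12. HTR2A, a serotonin receptor of cortical neurons, was at 99.8 CPM in WT1, 175 in WT2, 153 in TG1 and 135 in TG2, and CALB1, a neuronal calcium-binding protein, was at 45.6, 84.9, 65.7 and 64.4 CPM. They share with CX3CL1 a wild-type pair that brackets both transgenic libraries. A pattern over 4 libraries is a weak measure of likeness, and it is given as a description.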

How the data were processed

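RNA of frontal cortex was sequenced in 4 libraries. As deposited by the authors, each value is an unnormalized count of reads for a gene symbol. Per the submitters' processing notes the tools were kallisto 0.46.2, STAR 2.5.3a and featureCounts 1.5.2, with no roles stated. Build, annotation and strand handling were not given in the sources used here. No column or row was left out.

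Genes were filtered with filterByExpr and library sizes scaled by TMM. Genotype was tested with the quasi-likelihood test of edgeR 4.0.16 in R 4.3.3, with Benjamini-Hochberg adjustment over all 16385 genes kept and a threshold of 0.05. An SE is the log2 fold change divided by the square root of the F statistic. Alternatives used DESeq2 1.42.0, limma 3.58.1 (voom), other scalings and filters, a replicate block and each library left out. CPM use all counts of a library times its TMM factor, and log2 CPM a prior count of 2. A count of 3 was taken as the floor (0.166 to 0.232 CPM). Intervals of ratios are exact conditional binomial intervals. Counts of 2 libraries against 2 cannot give an exact permutation p below 0.33, so none is given. The steps were tested on simulated data in which both transgenic libraries shared each planted change. A rise in TG2 alone was not simulated.

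The members and gene lists were chosen with earlier results of these data known. Named genes were the members, the 3 genes of smallest p per list, their receptors, IRF1 and NFKBIA, and 1 gene of the rule is not reported here. Others were named after their values were seen. No sequences were used here.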

Additional observations from a re-analysis of the deposited data

How the results depend on the processing

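The comparison rests on 2 libraries a group, and TG2 sets most values of the inducible chemokines. edgeR called 0 genes, DESeq2 48, and edgeR with no low-count filter 5 (PDYN and 4 genes with LOC identifiers), none of them a chemokine. The median log2 fold change of the inducible members, 3.98 from CXCL8 alone, was 7.28 over all 5 members with no filter and 7.25 with a minimum mean count of 50. Leaving out each library in turn gave 0 to 1710 genes called, 0 to 20 genes of the pathway lists, an inducible median of -0.044 to 8.24 and a constitutive median of -0.45 to -0.19. The high counts come without TG1. The low inducible median, without TG2, is CXCL8 alone, and the high one, without TG1, is over all 5 members. The ends of that range thus cover different genes. Without TG2 edgeR called 3 genes, all with LOC identifiers. In the same fits the sign changed for CX3CL1 (-0.31 to 0.54), CXCL8 (-0.044 to 4.92), CXCL16 (-0.047 to 0.61), PF4 (-2.72 to 7.78), CCR4 (-1.02 to 0.19), ACKR3 (-0.15 to 0.46), MMP14 (-0.051 to 1.18), IL1B (-1.33 to 5.80), CXCR4 (-0.15 to 0.37) and NFKBIA (-0.43 to 2.35). Over the scalings the ratio of TG2 to the other libraries was 239 to 255 for CXCL9 and 535 to 570 for CXCL10. Same-numbered libraries had deviations with a correlation of -0.14 over genes, and with the replicate block, or with the replicate numbers crossed (added after seeing the data), 0 genes passed. With the block the constitutive median was -0.32 and the inducible one, from CXCL8 alone, 2.80. Depth limits the inducible members and CXCR3, CCR2, CXCR1 and CXCR2 in WT1, WT2 and TG1, where differences under a few counts were not detectable. The causes were not tested.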
